A study of Mus musculus with 16 samples.

Results

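*Tox*, *Tox2*, *Tox3*, *Pou2f2*, *Zfhx3*, *Zfhx4*, *Bcl11a*, *Bcl11b*, *Casz1* and *Etv6* are 10 transcription factor genes, of 49671 genes counted, that were picked as candidates for the muscle-type identity of proprioceptive sensory neurons (pSN). They were picked with the values of these same neurons in view, among them differences of *Tox*, *Tox2*, *Pou2f2* and *Casz1* between subgroups of pSN, so their differences among pSN are given below as descriptions. All 10 were found in the count tables of both ages by their Ensembl identifiers. The tables held single cells of mouse dorsal root ganglia in 96-well libraries made with CEL-Seq2, a plate method in which each captured mRNA molecule carries a unique molecular identifier (UMI) next to its 3′ end. At embryonic day (e) 15.5 there were 960 wells in 10 libraries from PvtdTom mice, a line that carries tdTomato on a bacterial artificial chromosome driven by the parvalbumin promoter. At postnatal day (p) 1 there were 576 wells in 6 libraries labelled Trpv1Cre; PvFlp; Ai65 and PvCre; Ai14. Ai65 gives tdTomato only where both Cre and Flp have acted and Ai14 wherever Cre has acted, and both drivers report past as well as present activity of their promoters. By this design the cells of both ages were taken as tdTomato positive. Parvalbumin also marks some cutaneous mechanoreceptors, and 402 of the e15.5 wells were rich in collagen RNA, as described below. The paper reports that Trpv1Cre; PvFlp; Ai65 labels a subset of pSN that innervates back muscles. By its methods, most p1 cells came from that cross, made with either the Trpv1Cre-Basbaum or the Trpv1Cre-Hoon driver. The p1 cells, unlike those of e15.5, were thus selected in part by muscle type. The study took as many cells from thoracic as from lumbar ganglia at both ages, and at p1 also from each line. By its methods, it sorted the e15.5 cells by fluorescence and picked the p1 cells by hand, although the labels name sorting for all. The labels give neither the spinal level nor the p1 line of a single library, nor the number of animals pooled in it. The spread between libraries may thus be technical or come from spinal level and, at p1, mouse line. Libraries of an age are therefore not like replicates, and the p-values below measure that spread only.

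A well was counted as a proprioceptor when it held at least 10000 UMIs, at least 300 CPM (counts per 1000000 UMIs) of *Etv1*, a UMI each of *Pvalb* and *Ntrk3*, and under 200 CPM of the glial genes *Apoe* and *Fabp7* together. This left 279 wells at e15.5, 6 to 64 a library, and 306 wells at p1, 8 to 75 a library. Their median depth was 117889 UMIs at e15.5 and 52867 at p1. *Runx3*, a proprioceptor marker the rule did not use, had 237 to 317 CPM in the e15.5 libraries and 253 to 359 CPM in those of p1. The 4 mechanoreceptor genes *Ntrk2*, *Maf*, *Ret* and *Mafa* summed to 11.8 to 98.9 CPM in the e15.5 libraries and 59.6 to 166 CPM in those of p1, with *Maf* the largest at p1, at 103 CPM with a UMI in 85.9% of wells. *Mafa* was at 0 CPM at e15.5, but it was at 0 in the other sensory neurons of that age too. The 5 nociceptor genes summed to 37.0 to 288 CPM at e15.5 and 23.9 to 165 CPM at p1, most of it *Tac1* at 107 and 71.9 CPM. The part of these genes in the results was not tested. The summed level of 6 glial genes was 8.54 to 26.6 CPM in the e15.5 libraries and 22.4 to 178 CPM in those of p1. Library 3 of p1 stood apart for its depth, with 8 proprioceptor wells and 134145 UMIs in all, so that a count of 0 there still allows 22.4 CPM, taking 3 counts as the upper limit for counting error only.

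Transcription factors that differ between neurons of one class can set which target a neuron grows to, and in sensory and motor neurons homeodomain, zinc finger and ETS proteins act in such programs. The 10 factors belong to 6 families. *Tox*, *Tox2* and *Tox3* encode proteins with a high mobility group box, and *Tox* is known for its part in T cell development. *Pou2f2* encodes Oct2, a POU homeodomain protein of B cells and neurons that binds the octamer motif. *Zfhx3* and *Zfhx4* encode very large proteins with many zinc fingers and several homeodomains. *Bcl11a* and *Bcl11b*, also called Ctip1 and Ctip2, encode zinc finger repressors, the former known for silencing fetal globin and the latter for guiding T cells and corticospinal neurons. *Casz1* encodes the vertebrate relative of the fly timing factor castor, and *Etv6* an ETS repressor of the same wide family as *Etv1*, the gene that defines pSN here.

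In the GENCODE M21 annotation of GRCm38, the gene bodies of the high mobility group factors were *Tox* (ENSMUSG00000041272) at chr4:6686353-6991557, *Tox2* (ENSMUSG00000074607) at chr2:163203125-163324170 and *Tox3* (ENSMUSG00000043668) at chr8:90247040-90348343. Those of the homeodomain factors were *Pou2f2* (ENSMUSG00000008496) at chr7:25087344-25179726, *Zfhx3* (ENSMUSG00000038872) at chr8:107942644-108961630 and *Zfhx4* (ENSMUSG00000025255) at chr3:5218526-5415857. The remaining genes were *Bcl11a* (ENSMUSG00000000861) at chr11:24078056-24174123, *Bcl11b* (ENSMUSG00000048251) at chr12:107910403-108003602, *Casz1* (ENSMUSG00000028977) at chr4:148804429-148954889 and *Etv6* (ENSMUSG00000030199) at chr6:134035700-134270158. All 10 are protein coding.

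RefSeq promoter windows, 250 bases before and 50 after the start of transcription on GRCm38.p6, were held for 8 of the 10 factors, all but *Tox* and *Zfhx4*. Those of *Bcl11a* and *Bcl11b*, the 2 factors lower at p1, and of *Casz1* and *Etv6*, which shared their 5 highest e15.5 libraries, are shown 5′ to 3′ on the strand of the gene with each CG in capitals. They lie at chr11:24080445-24080744 (plus strand), chr12:108003365-108003664 (minus strand), chr4:148804142-148804441 (plus strand, the first of 2 starts) and chr6:134035450-134035749 (plus strand).
Bcl11a: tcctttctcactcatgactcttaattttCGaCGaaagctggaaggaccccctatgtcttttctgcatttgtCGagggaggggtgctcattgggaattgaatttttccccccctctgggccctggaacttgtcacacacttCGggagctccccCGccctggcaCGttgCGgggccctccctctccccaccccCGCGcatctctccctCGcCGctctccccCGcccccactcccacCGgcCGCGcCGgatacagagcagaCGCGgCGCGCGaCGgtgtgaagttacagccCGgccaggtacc
Bcl11b: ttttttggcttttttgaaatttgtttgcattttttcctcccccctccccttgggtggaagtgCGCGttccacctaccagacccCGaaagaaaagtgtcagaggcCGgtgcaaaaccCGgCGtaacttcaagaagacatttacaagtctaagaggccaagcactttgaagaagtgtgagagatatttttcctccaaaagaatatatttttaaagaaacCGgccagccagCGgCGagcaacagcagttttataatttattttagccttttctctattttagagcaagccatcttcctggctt
Casz1: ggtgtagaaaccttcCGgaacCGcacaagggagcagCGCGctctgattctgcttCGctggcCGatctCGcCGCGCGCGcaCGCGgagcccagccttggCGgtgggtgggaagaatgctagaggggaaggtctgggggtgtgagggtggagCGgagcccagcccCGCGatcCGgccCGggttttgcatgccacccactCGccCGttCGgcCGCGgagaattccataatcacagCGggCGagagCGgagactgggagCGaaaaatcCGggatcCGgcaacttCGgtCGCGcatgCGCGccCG
Etv6: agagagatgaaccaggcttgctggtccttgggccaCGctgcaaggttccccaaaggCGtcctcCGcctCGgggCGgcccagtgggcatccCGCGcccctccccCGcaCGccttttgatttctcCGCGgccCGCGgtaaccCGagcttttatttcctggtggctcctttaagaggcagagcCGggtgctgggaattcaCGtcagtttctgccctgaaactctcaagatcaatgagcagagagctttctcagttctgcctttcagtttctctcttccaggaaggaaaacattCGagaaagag
The 2 *Bcl11* windows were unlike in composition. That of *Bcl11a* had 23 CG and 63.0% G and C and that of *Bcl11b* 9 CG and 43.0%. The *Casz1* window had 36 CG and the *Etv6* window 17 CG, and the median over all 32851 windows was 7. Each window of the factors was searched on both strands for the octamer ATGCAAAT (in 1.74% of all windows), for TGACCA, a motif bound by the Bcl11a protein (13.6%), and for CCGGAAGT, a motif of ETS proteins (3.89%). The only match was a CCGGAAGT on the strand opposite to the gene in the *Pou2f2* window at chr7:25132411-25132710 (minus strand). Its reverse complement is in capitals here and begins at position -71 from the start of transcription. The windows of *Pou2f2* and *Bcl11a* lie wholly inside the GENCODE gene bodies given above, so their RefSeq starts are inner ones.
Pou2f2: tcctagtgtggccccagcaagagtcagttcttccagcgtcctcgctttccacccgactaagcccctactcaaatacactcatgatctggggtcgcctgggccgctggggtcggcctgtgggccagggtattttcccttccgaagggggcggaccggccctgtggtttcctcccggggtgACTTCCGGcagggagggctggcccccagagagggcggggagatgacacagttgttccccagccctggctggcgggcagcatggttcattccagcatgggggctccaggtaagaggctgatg

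The comparison of the 2 ages asked which of the factors differed in level between the e15.5 and the p1 libraries. *Bcl11a* and *Bcl11b* were lower in the p1 libraries, and none of the other 8 factors passed the test, which does not show that their levels were kept. *Bcl11a* was at 63.8 to 210 CPM in the e15.5 libraries with a median of 168, and at 21.1 to 55.7 CPM in those of p1 with a median of 26.7. The libraries of the 2 ages did not overlap, the nearest being library 4 of e15.5 and library 1 of p1. Its log2 fold change was -2.09 ± 0.22 (SE, n = 10 and 6 libraries), with an adjusted p of 1.15e-07 by the quasi-likelihood test of edgeR, Benjamini-Hochberg adjusted. *Bcl11b* was at 28.1 to 93.7 CPM at e15.5, median 55.6, and at 11.2 to 28.9 CPM at p1, median 22.5. Its libraries overlapped only in that library 6 of p1 lay just above library 6 of e15.5. The log2 fold change was -1.18 ± 0.25 (SE), with an adjusted p of 0.000356 by the same edgeR test.

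The test counted 0 of the 10 factors higher and 2 lower at p1, beside 30.7% of 12743 tested genes called higher and 32.3% called lower. The median log2 difference was -0.20 over the 10 factors and -0.03 over all tested genes. With library totals in place of TMM scaling the median of all genes moved to -0.28 and the calls to 2713 genes higher and 5739 lower, against 3913 and 4116. *Tox3* then also passed as lower, at -0.42 with an adjusted p of 0.0162 by edgeR, and *Zfhx3* turned from 0.19 to -0.06. The 2 *Bcl11* genes were called lower under each of the alternatives run, with log2 fold changes of -2.38 to -1.98 for *Bcl11a* and -1.30 to -1.01 for *Bcl11b* when a library was left out. Glial genes, age, reporter line and the way the cells were isolated all differ between the 2 sets of libraries. Age, line and isolation cannot be told apart in this design, and the part of the glial genes was not tested beyond the limit of 50 CPM of *Apoe* and *Fabp7*, under which both calls stood.

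**Figure D1:**
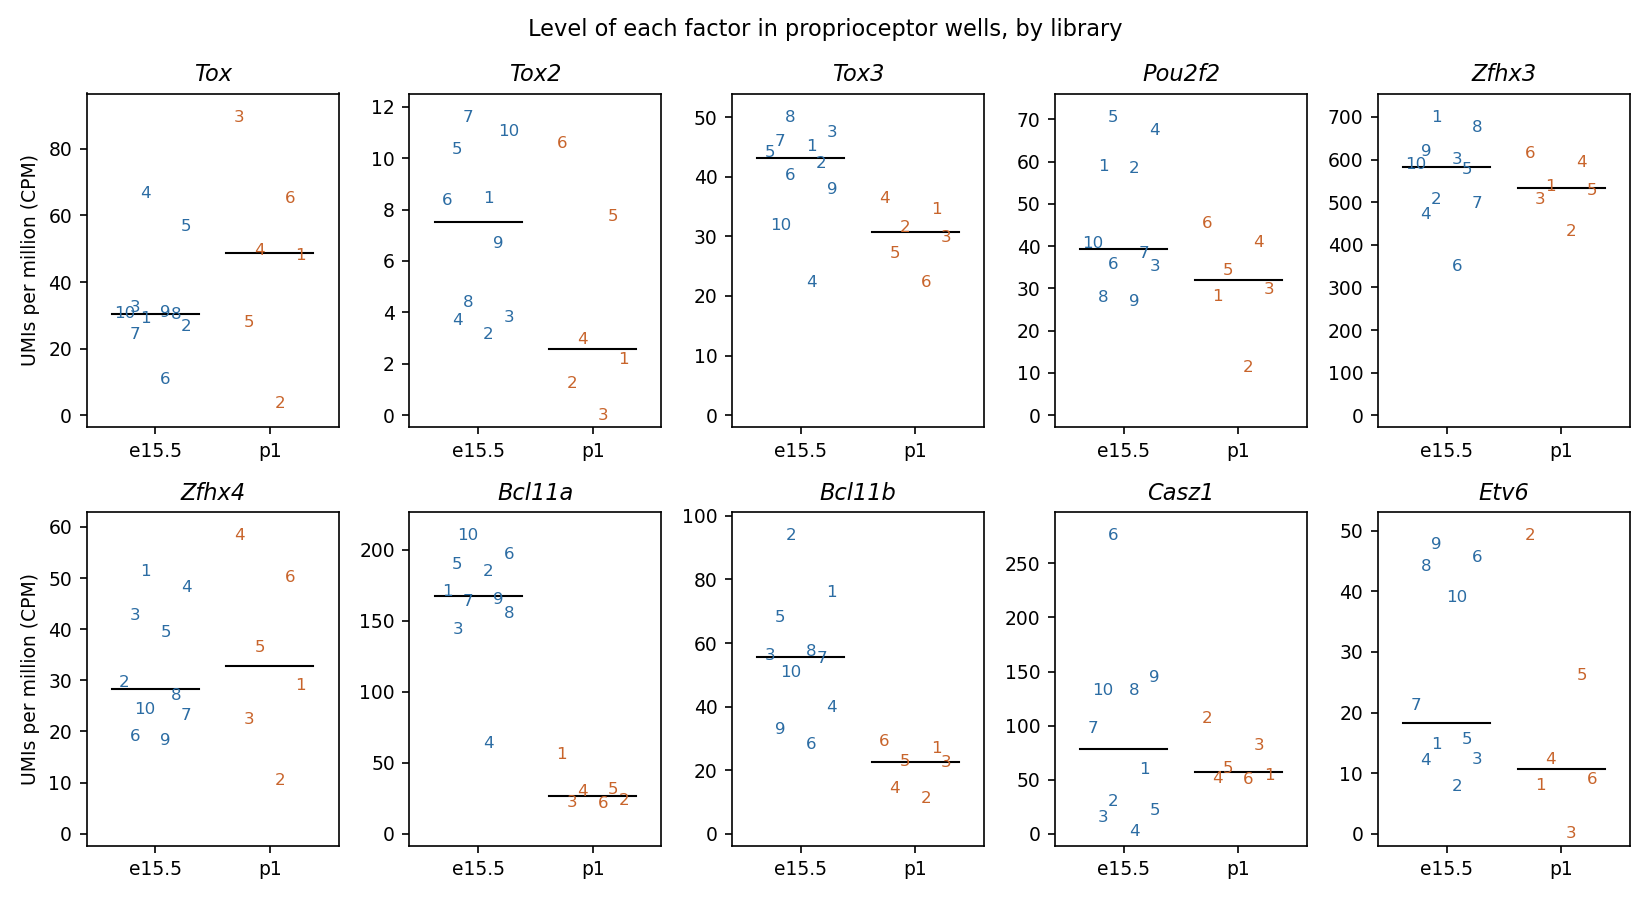
Level of each factor (CPM, vertical axis) in the summed proprioceptor wells of each library at e15.5 and p1. Each numeral is 1 library at its label number and the bar is the median. Only for *Bcl11a* do the 10 libraries of e15.5 (63.8 to 210 CPM) lie entirely above the 6 of p1 (21.1 to 55.7 CPM).

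The share of proprioceptor wells with a UMI told the same of these 2 genes once depth was made equal. With each well thinned to 10000 UMIs, *Bcl11a* was seen in 198 of 279 wells at e15.5 (71.0%, exact 95% interval 65.3 to 76.2) and in 81 of 306 at p1 (26.5%, 21.6 to 31.8). *Bcl11b* was seen in 36.9% of thinned wells at e15.5 (31.2 to 42.9) and in 15.4% at p1 (11.5 to 19.9). Without thinning the shares were 95.7% and 61.8% for *Bcl11a* and 70.6% and 50.3% for *Bcl11b*, at the unequal depths given above. These intervals cover counting error only and take the wells of a library as independent.

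Of the high mobility group factors, *Tox* varied widely between libraries. At e15.5 it was at 10.6 CPM in library 6, at a median of 30.3 and at 66.5 CPM in library 4. At p1 it was at 3.53 CPM in library 2, at a median of 48.7 and at 89.5 CPM in library 3, whose level rests on 12 UMIs. The p1 range thus enclosed that of e15.5. The log2 fold change was 0.49 ± 0.40 (SE) with an adjusted p of 0.296 by the quasi-likelihood test of edgeR, Benjamini-Hochberg adjusted. Without library 2 of p1 it was 0.81 with an adjusted p of 0.0172 by the same test. In that library 9.33% of 75 proprioceptor wells had a *Tox* UMI, and in the other p1 libraries 37.1 to 81.1%. That library was also the highest of p1 in *Gabrg1*, which the study ties to hindlimb pSN, at 231 CPM. Leaving it out may change the mix of muscle types, and the part of this was not tested. *Tox2* was the sparsest of the factors, with a UMI in 28.7% of wells at e15.5 and 16.0% at p1. Its library medians were 7.52 and 2.56 CPM, and the log2 fold change of -0.48 ± 0.42 (SE) did not pass, with an adjusted p of 0.342 by edgeR. *Tox3*, which has been linked to calcium-dependent transcription in neurons, was steadier, at 22.2 to 49.9 CPM at e15.5 and 22.3 to 36.3 CPM at p1, with a log2 fold change of -0.17 ± 0.14 (SE) and an adjusted p of 0.324 by edgeR.

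*Pou2f2* was at 27.0 to 70.5 CPM at e15.5, median 39.5, and at 11.4 to 45.4 CPM at p1, median 32.1. The 2 ranges overlapped, and the log2 fold change of -0.29 ± 0.27 (SE) had an adjusted p of 0.363 by edgeR. *D930028M14Rik*, which overlaps *Pou2f2* on the opposite strand, had 356 CPM at e15.5 and 68.2 CPM at p1 over all proprioceptor wells. The sources used here do not say whether strand was used in counting, so reads of the 2 genes cannot be told apart with certainty. *Zfhx3* was found in nearly all wells, with a UMI in 274 of 279 at e15.5 and 304 of 306 at p1. It was at 349 to 699 CPM at e15.5, median 583, and at 431 to 614 CPM at p1, median 533. Its log2 fold change was 0.19 ± 0.13 (SE), adjusted p 0.185 by edgeR. *Gm39244* overlaps *Zfhx3* on the opposite strand and had 120 CPM at e15.5 and 48.2 CPM at p1. *Zfhx4* was at 18.3 to 51.4 CPM at e15.5, median 28.3, and at 10.4 to 58.3 CPM at p1, median 32.7. Its log2 fold change of 0.43 ± 0.30 (SE) had an adjusted p of 0.217 by edgeR. Without library 2 of p1, the p1 library highest in *Gabrg1*, it was 0.68 with an adjusted p of 0.0223 by the same test. With every well thinned to 10000 UMIs it was 0.68 with an adjusted p of 0.0358 by edgeR.

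*Casz1* and *Etv6* were high in the same e15.5 libraries. *Casz1* was at 59.4, 29.5, 15.2, 1.85 and 21.5 CPM in libraries 1 to 5 and at 275, 97.1, 132, 145 and 133 CPM in libraries 6 to 10. *Etv6* was at 14.7, 7.88, 12.3, 12.0 and 15.5 CPM in libraries 1 to 5 and at 45.5, 21.2, 44.1, 47.6 and 39.1 CPM in libraries 6 to 10. For both genes the 5 highest libraries were those numbered 6 to 10, and no library of 1 to 5 reached them. *Hoxc10*, a Hox gene of the lumbar segments, had 3.15 to 52.2 CPM in libraries 1 to 5 and 114 to 149 CPM in libraries 6 to 10, the same 5 highest. The labels do not say what libraries 6 to 10 share, and because *Casz1* was among the genes by which the factors were chosen, no test was made. Thinned to 10000 UMIs, 0 to 25% of the wells of libraries 1 to 5 and 43.5 to 56.9% of those of libraries 6 to 10 had a *Casz1* UMI.

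At p1 the libraries were ordered otherwise. *Casz1* was at 53.7, 106, 82.0, 51.5, 60.2 and 50.1 CPM in libraries 1 to 6, with the highest value in library 2. *Etv6* was at 7.96, 49.2, 0, 12.2, 26.1 and 9.0 CPM, the 0 being library 3 with its limit of 22.4 CPM. *Hoxc10* was at 5.21, 51.5, 29.8, 13.5, 58.6 and 75.1 CPM, so its highest library, 6, was low in both factors. Library 2 of p1, high in *Casz1* and *Etv6*, was also the lowest in *Tox*, *Pou2f2*, *Zfhx3*, *Zfhx4* and *Bcl11b* and the highest in *Gabrg1*, a GABA-A receptor subunit the study ties to hindlimb pSN, at 231 CPM against 9.39 to 63.3 CPM elsewhere. Between the ages neither factor passed, with log2 fold changes of -0.23 ± 0.53 (SE) for *Casz1*, adjusted p 0.728, and -0.10 ± 0.44 (SE) for *Etv6*, adjusted p 0.857, by the quasi-likelihood test of edgeR, Benjamini-Hochberg adjusted. The libraries of the 2 ages overlapped for both genes, and the sign of both differences turned under some alternatives.

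**Figure D2:**
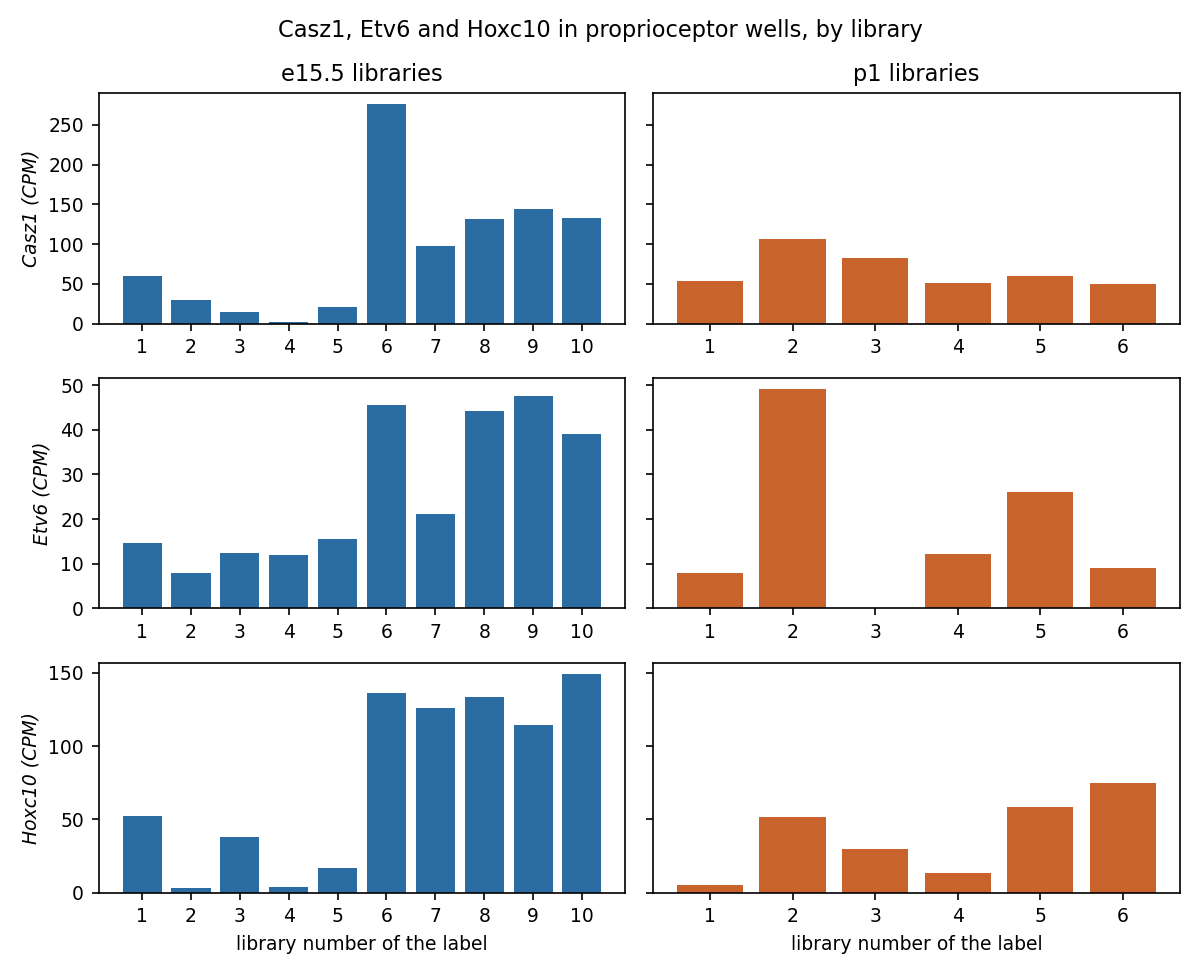
Level of *Casz1*, *Etv6* and *Hoxc10* (CPM, bars from 0) in the proprioceptor wells of each library, numbered as in the labels, at e15.5 (left) and p1 (right). At e15.5 the 5 highest bars of all 3 genes are libraries 6 to 10, and at p1 library 2 is highest for *Casz1* (106 CPM) and *Etv6* (49.2 CPM).

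Of the relatives of the 10 factors, *Tox4*, *Pou2f1*, *Zfhx2* and *Etv5* had enough counts for the test of age, and none of the 4 was called. With library totals in place of TMM 2 of the 4 were called lower, without a filter 1 of 6, and 1 of 5 was called lower when any 1 library of p1 was left out or wells of at least 20000 UMIs were taken. Their log2 fold changes were -0.16 ± 0.14 (SE) for *Tox4*, -0.18 ± 0.11 for the widely expressed octamer factor *Pou2f1*, -0.01 ± 0.30 for *Zfhx2* and -0.10 ± 0.48 for *Etv5*. *Etv4*, a close relative of *Etv1* and *Etv5*, was at 0 to 7.21 CPM in the e15.5 libraries and 0 to 0.782 CPM in those of p1. *Pou2f3* had a UMI in 1 of 279 wells at e15.5, an exact 95% interval of 0.00907 to 1.98%.

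**Figure D3:**
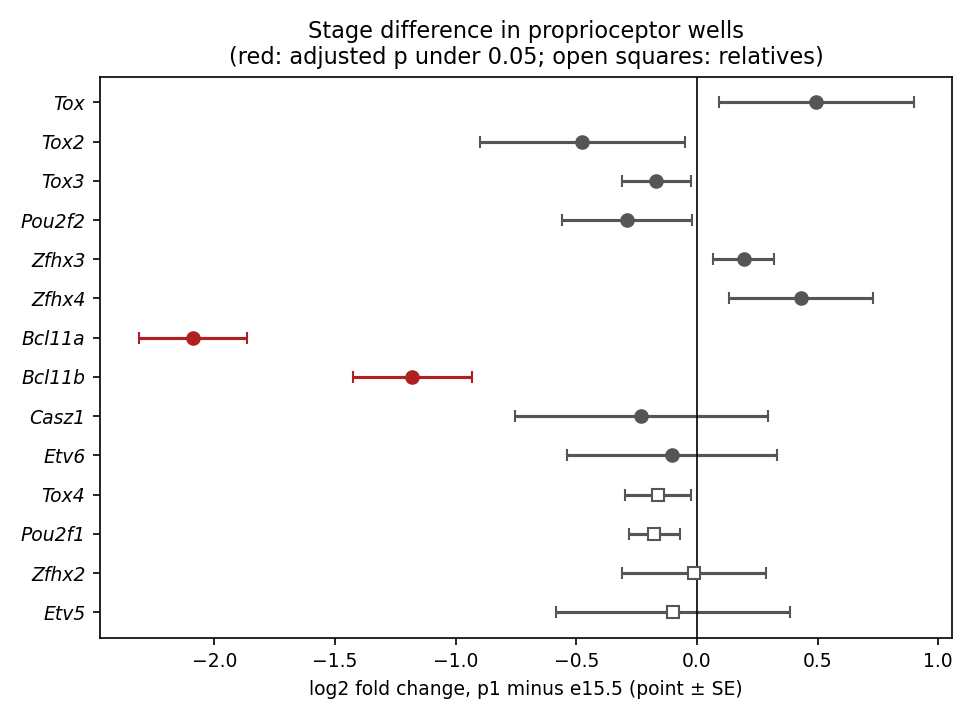
Log2 fold change from e15.5 to p1 (horizontal axis, p1 minus e15.5, with its SE as the bar) of the 10 factors and 4 relatives (open squares), from 10 and 6 libraries. Only *Bcl11a* at -2.09 and *Bcl11b* at -1.18, in red, have an adjusted p under 0.05 in edgeR's quasi-likelihood test.

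Other classes of wells at e15.5 show where else in these libraries the factors were made. Wells with under 300 CPM of *Etv1* and at least 1000 CPM of the collagen genes *Col1a1* and *Col1a2* together were called collagen-rich, and there were 402, with a median of 27622 UMIs. Set against the proprioceptor wells of the same 9 libraries, 6 of the 9 factors tested were higher in the proprioceptors and 2 lower, beside 38.8% of 11861 genes called higher and 38.8% called lower. *Casz1* was at 0 to 41.4 CPM in the collagen-rich wells and had a UMI in 9.70% of them, against 68.5% of proprioceptor wells at their greater depth. Its log2 difference was 2.92 ± 0.64 (SE, n = 9 libraries) with an adjusted p of 0.000811 by the quasi-likelihood test of edgeR, Benjamini-Hochberg adjusted. Library 1 held 53 of its UMIs in the collagen-rich wells, the 41.4 CPM, against 0 to 11 CPM in the other libraries. Without library 1 the difference of *Casz1* was 3.69, and without library 6 it was 2.37. *Pou2f2* was higher by 2.38 ± 0.35 and *Bcl11a* by 1.89 ± 0.21 on the log2 scale. Library 10 was an exception for *Pou2f2*, at 75.3 CPM in collagen-rich wells and 40.6 CPM in proprioceptors. That value rests on 9 UMIs in 5 wells, and the other libraries had 1.77 to 20.3 CPM in collagen-rich wells. *Tox3*, *Bcl11b* and *Zfhx3* were higher by 1.64 ± 0.26, 1.42 ± 0.14 and 0.77 ± 0.09.

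*Zfhx4* went the other way. It was at 165 to 310 CPM in the collagen-rich wells and at 18.3 to 51.4 CPM in the proprioceptors, with no overlap, and had a UMI in 90.5% of collagen-rich wells. The log2 difference was -2.97 ± 0.20 (SE) with an adjusted p of 6.81e-09 by edgeR. Connective tissue genes summed to 12.8 to 832 CPM in the proprioceptor wells of a library and to 23217 to 40781 CPM in the collagen-rich wells. *Etv6* was lower in the proprioceptors by -0.68 ± 0.22 on the log2 scale, adjusted p 0.0106 by edgeR, but the 2 classes overlapped, and the adjusted p was 0.194 without the library as a block and 0.0550 without library 2. *Tox* differed by 0.49 ± 0.22, adjusted p 0.0573, and passed as higher in the proprioceptors under 6 of 12 alternatives, with adjusted p values of 0.0110 to 0.0499 by edgeR or DESeq2. *Tox2*, at 0 to 4.68 CPM in the collagen-rich wells, had too few counts for the test.

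Sensory neurons other than pSN were rarer. Wells with under 300 CPM of *Etv1* and at least 300 CPM of *Avil* and *Isl1* together, with neither collagen nor glial genes over their limits, numbered 34, with a median of 90127 UMIs. They held mechanoreceptor genes at 1377 CPM and nociceptor genes at 681 CPM in sum, the former from 12.5 to 2493 CPM and the latter from 0 to 2172 CPM by library. In the 3 libraries with at least 5 such wells, numbered 1, 3 and 9, 1 of the 10 factors was higher in the proprioceptors and 3 lower, beside 6.94% of 10055 genes called higher and 5.51% called lower. *Casz1* was at 639, 435 and 482 CPM in the other neurons and at 59.4, 15.2 and 145 CPM in the proprioceptors of these libraries. It had a UMI in 34 of the 34 wells, and its log2 difference was -3.01 ± 0.42 (SE) with an adjusted p of 0.00194 by the quasi-likelihood test of edgeR, Benjamini-Hochberg adjusted. Without library 9 the difference of *Casz1* was -3.80, and without library 3 it was -2.54 with an adjusted p of 0.0352 by edgeR. *Tox3* was at 184, 118 and 139 CPM there against 45.1, 47.4 and 37.8 CPM, a log2 difference of -1.75 ± 0.18 with an adjusted p of 0.00037 by edgeR.

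*Tox2* too was lower in the proprioceptors, at 8.42, 3.79 and 6.69 CPM against 24.3, 34.0 and 20.1 CPM, with a log2 difference of -1.90 ± 0.38 and an adjusted p of 0.0118 by edgeR. Without library 3 the adjusted p of *Tox2* was 0.122. *Etv6* alone was higher in the proprioceptors, at 14.7, 12.3 and 47.6 CPM against 3.03, 5.48 and 5.91 CPM, which rest on 2, 5 and 5 UMIs. The log2 difference was 2.31 ± 0.43 with an adjusted p of 0.008 by edgeR, and without library 9 it was 1.64 with an adjusted p of 0.0858. Without the library as a block the adjusted p of *Etv6* was 0.0523. Over all 34 other sensory wells, those of untested libraries included, *Etv6* was at 12.9 CPM, above each of the 3 tested libraries. Over all e15.5 proprioceptor wells it was at 30.7 CPM. Of the relatives, *Zfhx2*, *Etv4* and *Etv5* were lower in the proprioceptors, *Etv5* by -3.92 ± 0.36 on the log2 scale, while the adjusted p of *Zfhx2* by edgeR was 0.0449. Of the 5 relatives tested, 2 in place of 3 were called lower with no library block, with DESeq2 and without library 1, and 1 without library 3. For *Tox*, *Pou2f2*, *Zfhx3*, *Zfhx4*, *Bcl11a* and *Bcl11b* the log2 differences lay between -0.20 and 1.07 and did not pass. Without library 1, *Tox* was higher in the proprioceptors by 2.0 with an adjusted p of 0.00316 and *Bcl11a* by 0.97 with an adjusted p of 0.0287, and without library 9 *Zfhx3* was higher by 0.50 with an adjusted p of 0.00373, all by edgeR.

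**Figure D4:**
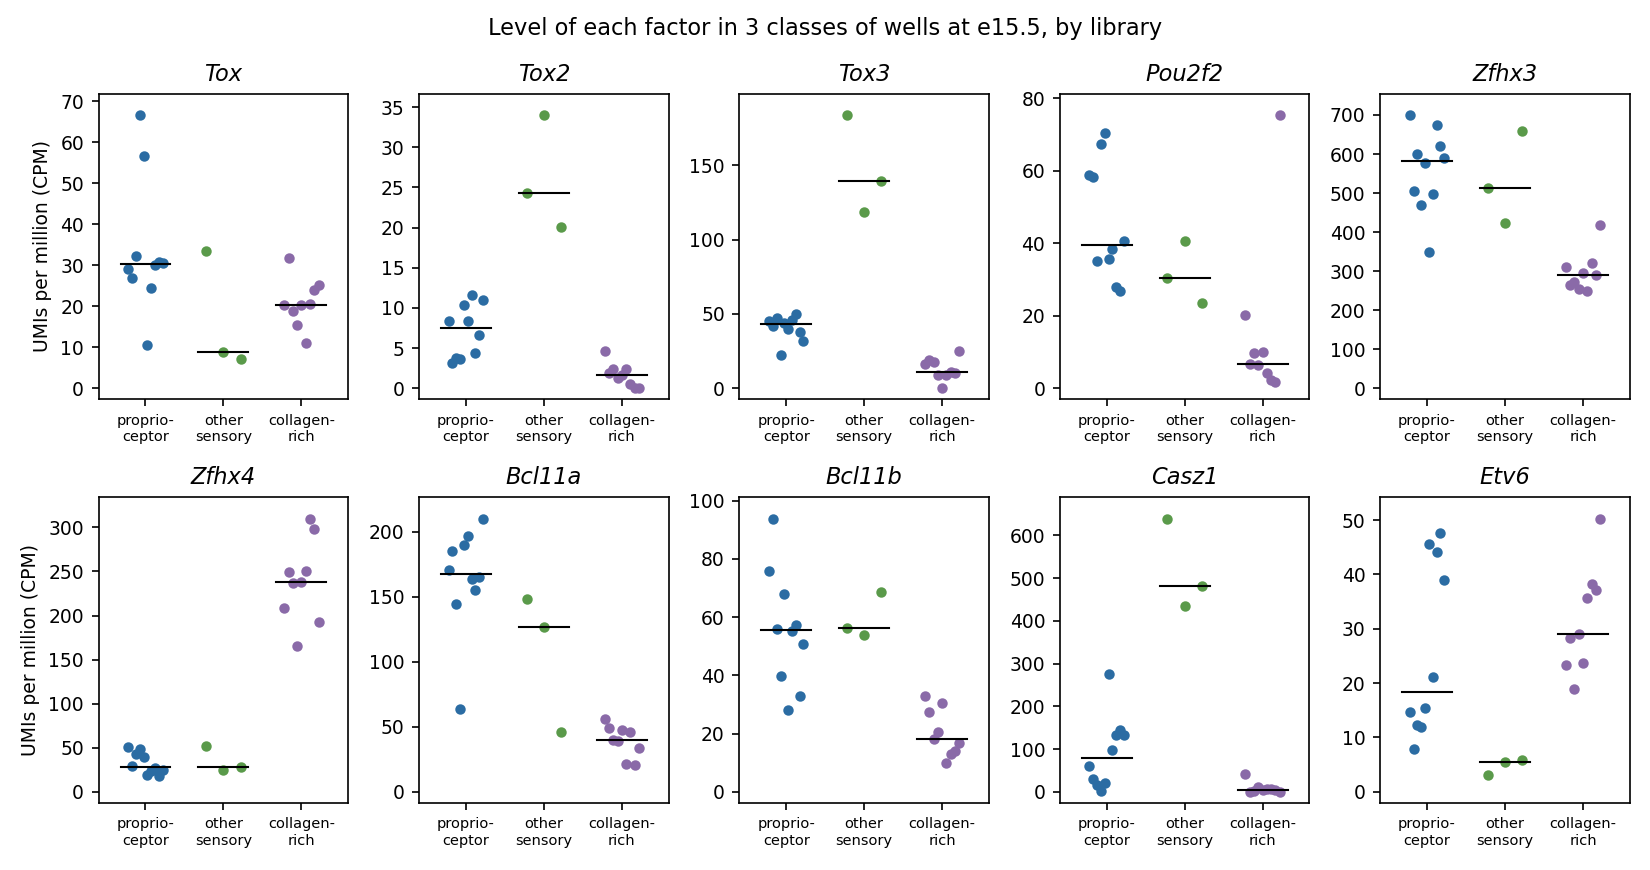
Level of each factor (CPM, vertical axis) in 3 classes of e15.5 wells. Points are libraries with at least 5 wells of the class (10 for proprioceptors, 3 for other sensory neurons, 9 for collagen-rich wells) and bars are medians. *Casz1* and *Tox3* are highest in the other sensory neurons and *Zfhx4* in the collagen-rich wells (165 to 310 CPM).

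Within the proprioceptors the factors were combined in many ways. Of the 10, the median e15.5 well held UMIs of 8 and the median p1 well of 6, and after thinning to 10000 UMIs of 4 and 3. UMIs of all 10 were present in 17 of 279 wells at e15.5 and 9 of 306 at p1, unthinned. Correlations of log2(CPM/100 + 1) between factors were taken over wells within each library of at least 10 proprioceptor wells, 8 libraries with 11 to 64 wells at e15.5 and 5 with 37 to 75 at p1. Wells of a library share its preparation and differ in depth, so the values are given as descriptions. The medians over libraries of the 45 pairs ran from -0.362 to 0.457 at e15.5 and from -0.179 to 0.276 at p1, and 33 pairs had the same sign at both ages. Most were weak, with 7 pairs at 0.3 or beyond in either direction at e15.5 and 0 at p1. After thinning 1 pair reached 0.3 at e15.5. Thinning leaves few UMIs a well, with *Etv6* for example seen in 22.6% of thinned e15.5 wells. It thus adds counting noise, which by itself tends to weaken r.

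The pair that was positive in every library at both ages was *Tox* and *Zfhx3*, the only such pair of the 45. Its r was 0.103 to 0.367 in the 8 libraries of e15.5, median 0.293, and 0.0697 to 0.275 in the 5 of p1, median 0.199. With the depth of the well held, the medians of *Tox* and *Zfhx3* were 0.210 and 0.215, and with wells thinned 0.0913 and 0.0525. *Zfhx3* and *Zfhx4* were positive in 7 of 8 libraries at e15.5, median 0.229, and in 5 of 5 at p1, median 0.265, but thinned the medians were -0.00601 and 0.0945. *Tox* and *Pou2f2* had medians of 0.176 and 0.276, positive in 6 of 8 and 5 of 5 libraries, and thinned -0.0510 and 0.118. At e15.5 the thinned medians of both pairs were thus slightly negative. At that depth *Tox*, *Zfhx4* and *Pou2f2* had a UMI in 19.7%, 21.5% and 29.0% of e15.5 wells.

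The highest median at e15.5 was that of *Casz1* and *Etv6*, 0.457, positive in 7 of 8 libraries and between -0.0278 and 0.819. Under the alternatives other than leaving out a library this median was 0.0829 to 0.508, lowest with wells thinned to 10000 UMIs. At p1 the median of *Casz1* and *Etv6* was 0.0347, positive in 3 of 5 libraries. Within e15.5 libraries *Hoxc10* had medians of -0.000792 with *Casz1* and -0.0998 with *Etv6*. All 3 genes were highest in the same 5 libraries, a difference between libraries that r within a library does not measure. *Bcl11a* and *Bcl11b* had a median of 0.319 at e15.5, positive in 7 of 8 libraries, and of -0.0563 at p1, and thinned 0.133 at e15.5. *Pou2f2* and *Bcl11a* had the lowest median at e15.5, -0.362 and thinned -0.217, yet 3 of the 8 libraries were positive. *Bcl11b* and *Etv6* were negative in 8 of 8 e15.5 libraries, median -0.253 and thinned -0.0710. *Zfhx3* and *Etv6* were positive in 8 of 8, median 0.272, against -0.0672 at p1, where thinning gave 0.00958.

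**Figure D5:**
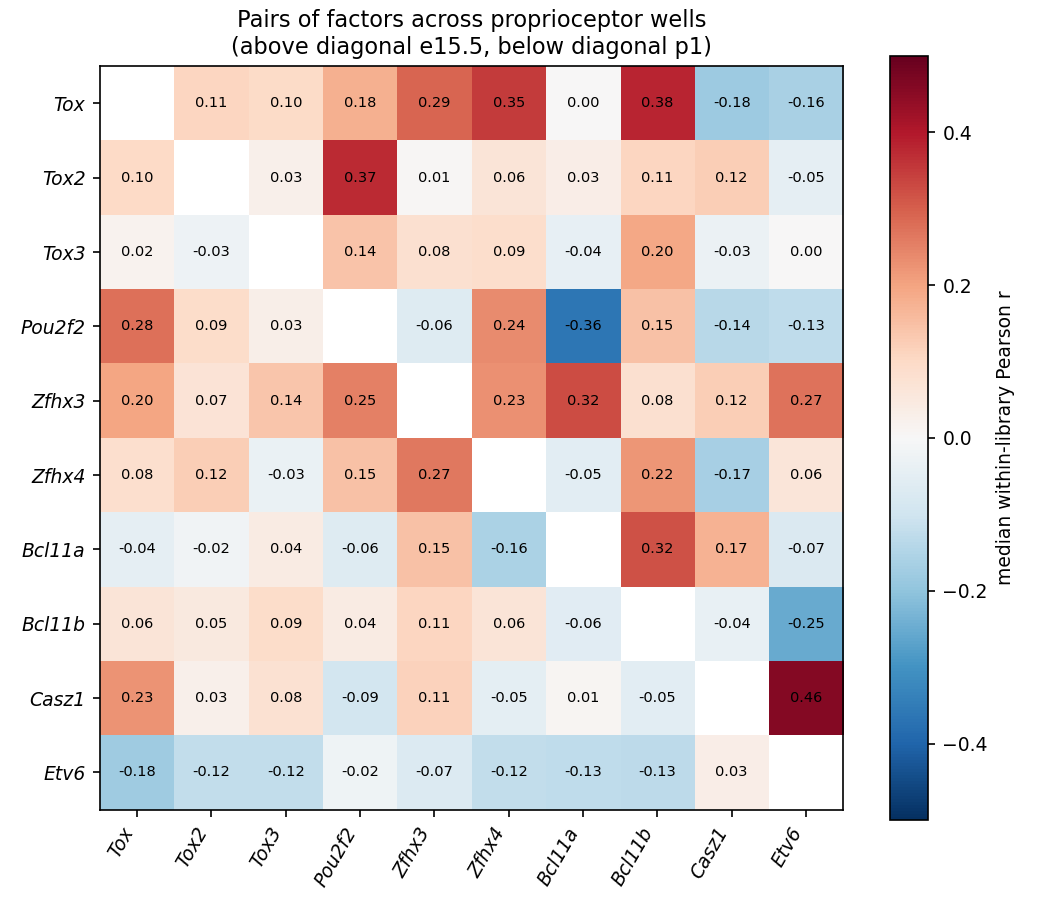
Median over libraries of the Pearson r of log2(CPM/100 + 1) across proprioceptor wells for each of the 45 pairs of factors, e15.5 (8 libraries) above the diagonal and p1 (5 libraries) below it, red positive and blue negative. The strongest square is *Casz1* with *Etv6* at e15.5 (0.457), against 0.0347 at p1. Under the alternatives other than leaving out a library the e15.5 value is 0.0829 (wells thinned to 10000 UMIs) to 0.508.

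The study ties *Tox*, one of the 10 factors, and *Epha3*, an ephrin receptor, to pSN of back muscles. It ties *Gabrg1* and the ephrin *Efna5* to those of the hindlimb and *C1ql2* to those of abdominal muscles. The factors were set against *Epha3*, *Gabrg1*, *Efna5* and *C1ql2* in the same way. *Epha3* went with *Zfhx4* in every library, at 0.0902 to 0.748 at e15.5, median 0.459, and 0.0807 to 0.486 at p1, median 0.264. With wells thinned the medians of *Epha3* and *Zfhx4* were 0.163 and 0.129. Like *Zfhx4*, *Epha3* was lower in proprioceptors than in collagen-rich wells, by -2.75 ± 0.33 (SE) on the log2 scale. The r of 0.748 was that of e15.5 library 7, whose proprioceptor wells had the most connective tissue RNA, at 832 CPM. The part of such RNA in this pair was not tested. *Epha3* with *Pou2f2* had medians of 0.293 and 0.246, thinned 0.112 and 0.0658, and with *Tox* 0.275 and 0.210. *Epha3* with *Casz1* was negative in 7 of 8 e15.5 libraries, median -0.288. *Gabrg1* was negative with *Bcl11a* in all 7 e15.5 libraries that held it, median -0.459 and thinned -0.229, and in all 5 of p1, median -0.0946, which turned to 0.0356 by Spearman's rho. *Gabrg1* was negative with *Bcl11b* in the same 7 and 5 libraries, with medians of -0.295 and -0.149, thinned -0.197 and -0.0865. In e15.5 libraries 1, 5 and 6 the *Gabrg1* values rest on 2, 4 and 4 wells with a UMI of it. *Etv6* was positive with *Gabrg1*, medians 0.235 and 0.299, in 5 of 7 and 4 of 5 libraries, but thinned the e15.5 median was -0.0468. *Efna5* with *Etv6* had medians of 0.138 and 0.304 and with *Casz1* 0.299 and 0.208. *C1ql2* was sparse, with a UMI in 20.1% of wells at e15.5 and 13.4% at p1. Its highest e15.5 median was with *Bcl11a*, 0.371, positive in 6 of 7 libraries, and 0.161 at p1. Its lowest e15.5 median was with *Zfhx3*, -0.251, negative in 5 of 7, and -0.0518 at p1. For the pairs of *Efna5* and *C1ql2*, and those of *Epha3* with *Tox* and *Casz1*, values under the alternatives are not given here.

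The genes most like each factor were ranked by the mean of the e15.5 and p1 medians of r. The ranking took in 13824 genes with a UMI in at least 10% of proprioceptor wells at both ages. It used wells that were not thinned, and no alternative was run for it. For *Zfhx3* they were the sialyltransferase gene *St6galnac5* at 0.548, *Onecut2*, a homeodomain factor, at 0.478 and *Khdrbs2* at 0.472, with 0.208 as the 99th percentile over all genes. For *Zfhx4* they were *Arpc1b*, a subunit of the Arp2/3 complex, at 0.383, *Epha3* at 0.362 and *Lix1* at 0.305. *Tox* was most like *Cdh13*, which encodes T-cadherin, at 0.456, followed by *Bean1* at 0.360 and *Thsd7b* at 0.348. *Pou2f2* was most like *Serpinb8* at 0.397, *Tnfaip8l3* at 0.346 and *Myom3* at 0.329, and *Serpinb8* also came second for *Tox2*, at 0.288 behind *Cux1* at 0.346. The third gene for *Tox2* was *Ptn* at 0.273. The highest value for *Tox3* was the lowest of the 10 factors, with *Tenm4*, a teneurin, at 0.264, *Ebf1* at 0.252 and *Ccdc149* at 0.234.

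For *Bcl11a* the most alike genes were *Rasgrf1*, a Ras exchange factor, at 0.435, *Isl1*, the LIM homeodomain factor of sensory neurons, at 0.402 and *Tmem132d* at 0.343. For *Bcl11b* they were *Fam124a* at 0.409, *Pcp4* at 0.325 and *Adgrg3* at 0.305. *Casz1* was most like the potassium channel gene *Kcna2* at 0.402, *Fgf1* at 0.368 and *Palm3* at 0.358. *Fgf1*, a fibroblast growth factor, was also first for *Etv6* at 0.351, ahead of *Pappa2* at 0.323 and *Chrm2*, a muscarinic receptor, at 0.316. Some of these means join unlike ages. *Fgf1* with *Casz1* had a median of 0.672 at e15.5 and of 0.0637 at p1. *Kcna2* with *Casz1* had 0.659 and 0.146, and *Fam124a* with *Bcl11b* 0.629 and 0.190. Other pairs were closer, such as *St6galnac5* with *Zfhx3* at 0.570 and 0.525.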

How the data were processed

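The deposited files hold UMI counts per gene and well, not normalized, 1 table per age; per the paper's methods the authors demultiplexed, mapped and counted reads with scruff, and the labels' processing notes name mm10 and GRCm38. Whether counting used strand is not stated in the methods or labels. The study's own cell filters were not applied and no doublet caller was run. Ensembl IDs were named by GENCODE M21 (49412 of 49671 matched). No 2 wells were identical (0 in each table).

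Members and lists were chosen with earlier results of these data known. Libraries were grouped by the age in their labels. Counts were summed over the proprioceptor wells of each library (134145 to 7348896 UMIs) and over each other class, with at least 5 wells. They were tested with edgeR 4.0.16 in R 4.3.3 (glmQLFit, glmQLFTest, TMM, filterByExpr, Benjamini-Hochberg threshold 0.05), with the library as a block between classes. DESeq2 1.42.0 was an alternative, and the fit was tested on simulated data. Correlations used log2(CPM/100 + 1), a constant that mutes differences among low values. Intervals are exact binomial at 95% and, like the limit of 3 counts for a count of 0, cover counting error only.

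The text names the 10 factors, relatives in their families (6 of 7 listed were found), genes the study ties to muscle groups and *Hoxc10*, and the 3 genes most like each factor. Alternatives were other scalings, tools, filters, depth, limits on wells and leaving out each library. The fit on shared library numbers without a block was chosen after seeing the data.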

Additional observations from a re-analysis of the deposited data

Results flagged for a closer look

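For 4 of 50 sets of library values examined, 1 library stood far from the others by Dixon's criterion, which chance meets in about 1 of 20 sets. *Bcl11a* at e15.5 was at 63.8 CPM in library 4, against 144 to 210 CPM in the other 9 libraries. *Casz1* at e15.5 was at 275 CPM in library 6, against 1.85 to 145 CPM in the others. *Bcl11a* at p1 was at 55.7 CPM in library 1, against 21.1 to 31.5 CPM in the others. The r of *Tox2* and *Etv6* in e15.5 library 6 was 0.532, against -0.127 to 0.134 in the others, over 11 wells.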

How the results depend on the processing

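*Bcl11a* and *Bcl11b* were called lower at p1 under every alternative run. Thinned to 10000 UMIs, 1942 genes were higher and 1946 lower at p1 among 6919 tested, 1 factor (*Zfhx4*) was called higher, and *Tox3* turned to 0.011. Without a filter on low counts 5971 genes were higher. With library totals *Zfhx3* turned to -0.056. Leaving out a library gave 0 to 2 factors higher (2, *Tox* and *Zfhx4*, without p1 library 2), *Casz1* from -0.48 to 0.068 (above 0 without e15.5 library 6) and *Etv6* from -0.75 to 0.12 (above 0 without e15.5 libraries 8 or 9 or p1 libraries 1, 4 or 6). With the replicate block, over the 6 library numbers both ages share, 3076 genes were higher and 3014 lower, *Casz1* was 1.06 and *Etv6* 0.30; the same libraries with no block gave 0.30 and 0.55. The numbers did not pair the libraries: same-numbered deviations had r of -0.201 to 0.0622, median -0.0622.

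Against collagen-rich wells, 1 factor was lower with no replicate block, leaving out a library gave 1 to 2 (1 without library 2), and thinning gave 2170 genes higher and 2656 lower. Against other sensory neurons, the factors higher in proprioceptors numbered 0 with no replicate block, 4 without a filter, 0 after thinning (1 lower, with 3 factors tested) and 1 to 3 when a library was left out. Genes called there were 409 higher and 348 lower with DESeq2, 1187 higher without a filter, 102 and 78 after thinning, and 210 to 898 higher and 192 to 753 lower when a library was left out, the lowest without library 3. *Zfhx4* ran from -0.29 (without library 3) to 0.34 and *Bcl11b* from -0.53 to 0.28 (without library 9). Pairs at 0.3 or beyond at e15.5 numbered 3 by Spearman's rho and 1 after thinning. At p1 they numbered 1 in wells of at least 20000 UMIs, 1 with depth held and 0 to 2 when a library was left out (2 without library 2, 1 without library 5 or 6). The cause was not tested in any of these. Values below a few CPM rest on few UMIs, above all in p1 library 3.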
